A study of Coprinopsis cinerea with 10 samples.

Results

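The genes described here are the fatty acid, sterol and sphingolipid genes of the mushroom Coprinopsis cinerea. They were chosen by their product names on the array: a product had to contain fatty acid, acyl-CoA, enoyl-CoA, sterol, squalene, ceramide, sphingo, desaturase, lipase or acyltransferase, and none of P450, kinase, histone or transporter. The rule took 113 of the 13320 genes on the array and used no measured value. From their names alone the members were placed in 10 roles: 3 in fatty acid synthesis, 8 in fatty acid modification, 16 in sterol synthesis, 8 in sterol conjugation and binding, 11 in sphingolipids, 5 in acyl-CoA activation, 20 in beta-oxidation, 27 lipases, 10 phospholipases and 5 acyltransferases. The names are those of the array's design, and a name was not checked against any enzyme activity.

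Total RNA was measured at 5 stages of fruiting body development with Cy3-labelled one-colour NimbleGen arrays, 2 biological replicates per stage and 10 arrays in all. Vegetative mycelium was followed by fruiting initials of about 2 mm, by stage 2 primordia of about 1 cm and by young fruiting bodies of about 2 cm. The last samples were fully expanded caps, taken from mature fruiting bodies that stood about 4 cm high. Each mycelium replicate combined 5 agar plates, and 4 to 5 structures went into a replicate of any later stage. The same fruiting dikaryon gave all stages. It was a strain of 50% Okayama-7 origin, backcrossed for 5 generations to Okayama-7, the sequenced monokaryon, and given as about 98.44% homologous to it. The growth medium was yeast extract, malt extract and dextrose agar, with mycelium kept for about 1 week at 37 °C. Fruiting followed a shift to 25 °C and a cycle of 12 h of light and 12 h of dark. Temperature and light therefore changed together with the step out of mycelium, and mature caps were compared with whole smaller structures, so these factors and stage cannot be told apart. In bulk tissue, fewer cells of a type and less RNA per cell cannot be told apart either.

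Fungi build fatty acids from acetyl-CoA on a large fatty acid synthase, insert double bonds with membrane desaturases, store the acids as triacylglycerol, release them again with lipases, and burn them by beta-oxidation in peroxisomes and mitochondria. Their membrane sterol is ergosterol, made from squalene through lanosterol and a chain of demethylation, reduction and methylation steps. Their sphingolipids are chiefly inositol phosphorylceramides and glucosylceramides, the last marked by a C9 methyl group and by double bonds at the Δ4 and Δ8 positions. In another mushroom, Schizophyllum commune, certain glucosylceramides are known to promote fruiting.

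Replicate arrays of a stage correlated at 0.997 to 0.999 over all genes, and the median intensity of an array lay between 3268 and 3403 units. The image identifiers of the 10 arrays shared 1 stem and numbered them in stage order, so position in the array set and stage cannot be told apart. Galectin-1 (CC1G_05003), a lectin of young fruiting tissue, had mean log2 intensities of 11.64 in mycelium, 13.86 in initials, 13.65 in primordia, 13.34 in young fruiting bodies and 9.37 in mature caps. Galectin-2 (CC1G_05005) had 13.98, 14.56, 14.44, 14.11 and 12.5 in the same order, a smaller rise into initials. Spo11 (CC1G_03320), which makes the DNA breaks of meiosis, had 6.23 in mycelium, 9.92 in initials, 11.27 in primordia, 11.55 in young fruiting bodies and 9.69 in mature caps. Genes with meiotic product names took other courses. CC1G_03873 was highest in mycelium (13.55) and lowest in mature caps (11.72), and CC1G_00411 was highest in initials (12.2). CC1G_02158 and CC1G_13624 were highest in mature caps (11.95 and 13.42). Hydrophobins CC1G_02182, CC1G_08314, CC1G_09189 and CC1G_10176 were highest in mycelium, and CC1G_13822 in young fruiting bodies. The floor was 4 times the level of an array's random-sequence controls, 89.4 to 117 units, and a gene counted as under it where neither array of the stage exceeded it. Spo11 was under it in mycelium. Of the 113 members, 2 were under it in all 5 stages, against 1468 of the 13320 genes: a sterol 24-C-methyltransferase (CC1G_05622) and a lipase I (CC1G_03618).

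The members varied with stage about as often as all genes on the array, a background that includes genes under the floor in every stage. The F test over all stages (limma, Benjamini-Hochberg adjusted p under 0.05 over all genes) called 107 of the 113 members, against 89.8% of all genes. A filter on dim genes kept 11417 genes, and the F test then called 108 members and 11278 genes. With that filter 82 members and 9255 genes were called in initials against mycelium, and 56 members and 6654 genes in primordia against initials. In young fruiting bodies against primordia 55 members and 6617 genes were called. In each of these steps the share called was lower among the members than among the 11417 genes kept. In mature caps against young fruiting bodies, with 98 members and 9977 genes called, the shares were about the same. Between their highest and lowest stage 50 members, 44.2%, differed by more than 2-fold, and 47.6% of all genes did. Mature caps held the highest mean level of 40 members and the lowest of 39, mycelium the highest of 25 and the lowest of 33. Of all genes 34.0% were highest and 32.0% lowest in mature caps, and 25.0% were highest and 28.7% lowest in mycelium. Primordia held the highest level of 8 members, beside 9.64% of all genes, and the lowest of 8, beside 8.05%.

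Most of the large changes came at the start and at the end of the series. Between initials and mycelium 81 of the 113 members were called, 50 higher and 31 lower in initials, where 71.1% of all genes were called (37.5% higher and 33.7% lower). Of these, 11 rose and 3 fell by at least 2-fold, against 9.01% and 10.9% of all genes (19.9% in either direction). The members' median log2 difference was 0.07, against 0.02 over all genes.

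Between primordium and initials 54 members were called, 20 higher and 34 lower in primordia, where 48.0% of all genes were called (23.5% higher and 24.5% lower). A single member changed by at least 2-fold, squalene monooxygenase, which fell, beside 3.95% of all genes in either direction. The median log2 difference was -0.05 in the members and 0.0031 over all genes. This count rested on single arrays: it was 30 without initials replicate 1, 32 without initials replicate 2 and 29 without primordium replicate 1. Another setting, chosen after the data were seen, averaged the arrays of the 3 stages whose replicates hardly differed beyond the probe blocks. With it far fewer members were called, and far fewer of all genes as well.

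Between young fruiting body and primordium 52 members were called, 21 higher and 31 lower in young fruiting bodies, where 48.8% of all genes were called (24.0% higher and 24.8% lower). None rose by at least 2-fold, and 2 fell that far, squalene monooxygenase and a phospholipase. Of all genes 4.57% passed that fold in either direction and 1.99% fell by it. The averaging described above also lowered the number of calls over all genes in each comparison. With the same averaging 16 of the 52 calls were left, and 49 of the 81 between initials and mycelium.

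Between mature cap and young fruiting body 97 members were called, 46 higher and 51 lower in mature caps, where 79.0% of all genes were called (38.3% higher and 40.7% lower). By at least 2-fold 13 rose and 17 fell, against 12.3% and 14.8% of all genes. The median log2 difference was -0.08 in the members and 0.02 over all genes. Between mature cap and mycelium 101 members were called, 53 higher and 48 lower in mature caps, where 80.7% of all genes were called (40.7% higher and 40.0% lower). By at least 2-fold 17 rose and 19 fell in that comparison, against 14.8% and 17.0% of all genes.

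**Figure D1:**
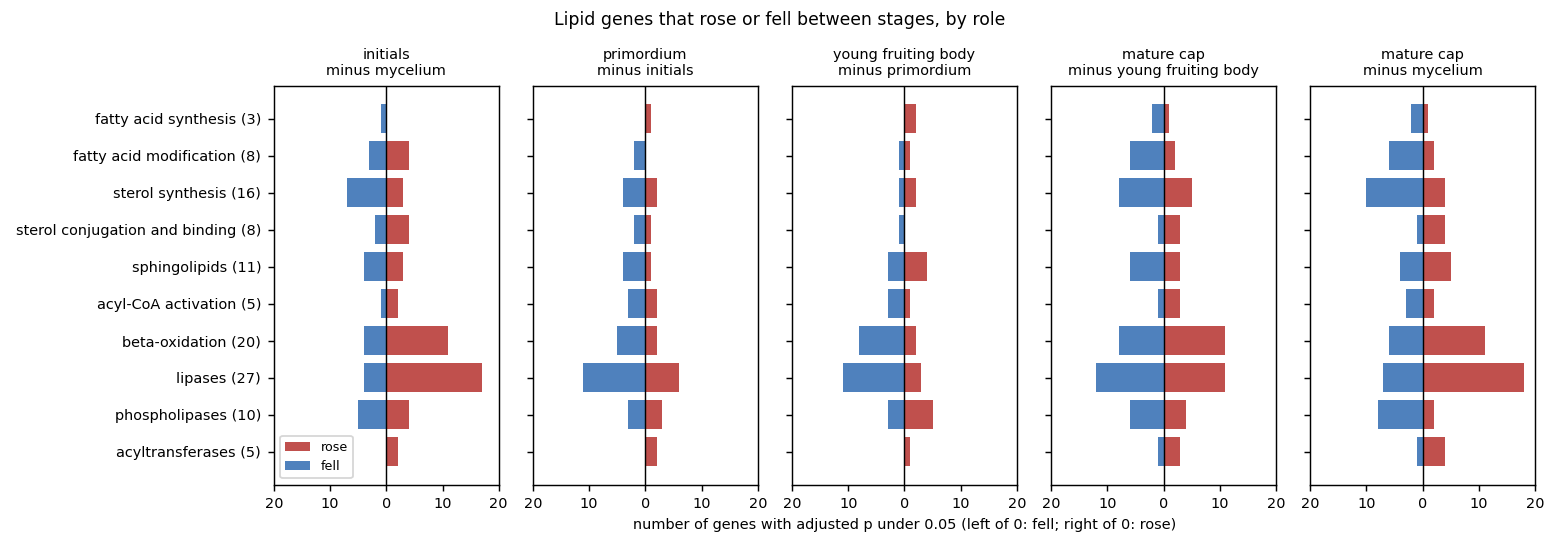
Number of genes of each role (rows, with the number of genes in brackets) that rose (right of 0) or fell (left of 0) in each of the 5 comparisons, by limma at an adjusted p under 0.05. Of the 27 lipases 17 rose and 4 fell in initials against mycelium, and of the 8 fatty acid modification genes 6 fell and 2 rose in mature caps against young fruiting bodies.

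A difference is the later stage minus the earlier one on the log2 scale, given ± its standard error (SE) from the fit, n was 2 arrays per stage, and p is limma's, adjusted over all 13320 genes. Each call was repeated under 20 other settings, and a call that some of them lost is marked with their number.

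The 3 genes of fatty acid synthesis changed little before the mature cap. In mature caps against young fruiting bodies 2 of them fell and 1 rose, where 40.7% of all genes fell and 38.3% rose. The alpha subunit of fatty acid synthetase (CC1G_07064), which carries the chain on its acyl carrier domain, gave 11110 and 11296 intensity units in mature caps, against 15882 and 16381 in young fruiting bodies. All 8 arrays of the other stages lay above those of mature caps, and the difference from young fruiting bodies was -0.53 ± 0.033 log2 units (adjusted p = 5.45e-06). The fatty acid elongase (CC1G_11306), which lengthens finished fatty acids, gave 8824 and 8475 intensity units in mature caps, against 12382 and 12565 in young fruiting bodies. The difference was -0.53 ± 0.029 log2 units (adjusted p = 2.57e-06). The trans-2-enoyl-CoA reductase (CC1G_14862), the last enzyme of the elongation cycle, moved the other way, with 7731 and 7428 intensity units in mature caps, against 6946 and 6966 in young fruiting bodies. The difference was 0.12 ± 0.028 log2 units (adjusted p = 0.00498, lost in 2 of 20 settings). Over the whole series it was highest in mature caps and its difference from mycelium was 0.27 ± 0.028 log2 units (adjusted p = 6.47e-05).

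The fatty acid modification genes, 7 of them desaturases or relatives and 1 a hydroxylase, held the widest swings of all roles, with a median range of 2.58 on the log2 scale against 0.83 in all members. In initials 4 of the 8 rose and 3 fell, and 3 of the rises passed 2-fold, where 37.5% of all genes rose and 33.7% fell and 9.01% rose by that much. In mature caps against young fruiting bodies 2 of the 8 rose and 6 fell, and 5 of the falls passed 2-fold, where 38.3% of all genes rose, 40.7% fell and 14.8% fell by at least 2-fold. Against mycelium, too, mature caps had 5 of the 8 lower by at least 2-fold, beside 17.0% of all genes.

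A gene named fatty acid conjugase (CC1G_02589), after plant relatives of the Δ12 desaturase that make conjugated double bonds, was high only in the 3 middle stages. Its values were 695 and 736 intensity units in mycelium, 7613 and 7568 in initials, 8157 and 7796 in primordia, 7594 and 7632 in young fruiting bodies and 134 and 257 in mature caps. The 6 arrays of initials, primordia and young fruiting bodies stood together, far above both mycelium arrays and both mature cap arrays. Initials differed from mycelium by 3.41 ± 0.26 log2 units (adjusted p = 2.33e-05), and mature caps from young fruiting bodies by -5.35 ± 0.26 log2 units (adjusted p = 1.47e-06). The 2 mature cap arrays, at 134 and 257 units, lay apart and not far above their floors of 105.7 and 111.5 units. The size of that fall is therefore uncertain. Mature caps also ended below mycelium. The difference was -1.94 ± 0.26 log2 units (adjusted p = 0.000328).

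The next gene along the chromosome was named Δ12 fatty acid epoxygenase (CC1G_02590), after plant relatives that put an epoxide on linoleic acid, and was likewise high in the middle stages. Its values were 327 and 332 intensity units in mycelium, 4163 and 4148 in initials, 3668 and 3257 in primordia, 2871 and 2959 in young fruiting bodies and 63.8 and 88.8 in mature caps. Both mature cap arrays were under the floor, so falls into that stage are given as bounds. The rise in initials was 3.66 ± 0.14 log2 units (adjusted p = 7.86e-07), and levels in mature caps were at least 26.8-fold lower than in young fruiting bodies (adjusted p = 9.47e-08) and at least 3.04-fold lower than in mycelium (adjusted p = 6.57e-06). Neither gene was called between primordium and initials or between young fruiting body and primordium.

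The Δ12 fatty acid desaturase (CC1G_09244), which turns oleic into linoleic acid, followed that course with a smaller rise. Its values were 4193 and 3921 intensity units in mycelium, 9380 and 8770 in initials, 8878 and 8796 in primordia, 6390 and 6432 in young fruiting bodies and 821 and 804 in mature caps. Initials and primordia were highest and mature caps lowest, with no overlap between the arrays of either and those of mycelium. The differences were 1.16 ± 0.045 log2 units (adjusted p = 7.59e-07) in initials against mycelium, -0.46 ± 0.045 log2 units (adjusted p = 0.000283) in young fruiting bodies against primordia and -2.98 ± 0.045 log2 units (adjusted p = 1.08e-08) in mature caps against young fruiting bodies.

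Desaturases of the Δ9 type put the first double bond into a saturated chain, and the array named 3 genes for this step. Acyl-CoA desaturase 1 (CC1G_06579) gave 5886 and 5858 intensity units in mycelium, 3968 and 3905 in initials, 3576 and 3466 in primordia, 3156 and 3060 in young fruiting bodies and 192 and 252 in mature caps. It was highest in mycelium, lower in the 3 middle stages and close to the floor in mature caps, 1 of 2 genes in this role that were highest in mycelium. The difference was -0.58 ± 0.11 log2 units (adjusted p = 0.00292, lost in 1 of 20 settings) for initials against mycelium, -3.82 ± 0.11 log2 units (adjusted p = 1.34e-07) for mature caps against young fruiting bodies and -4.74 ± 0.11 log2 units (adjusted p = 3.35e-08) for mature caps against mycelium.

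The second gene, Δ9 fatty acid desaturase CC1G_11588, gave 2507 and 2625 intensity units in mycelium, 2617 and 2590 in initials, 2406 and 2472 in primordia, 2372 and 2380 in young fruiting bodies and 901 and 737 in mature caps. Its 8 arrays before the mature cap lay between 2372 and 2625 units, and both mature cap arrays lay below them. The difference was -1.54 ± 0.086 log2 units (adjusted p = 2.87e-06). The third, Δ9 fatty acid desaturase CC1G_15704, hardly moved, with 16161 and 16063 intensity units in mature caps, against 16810 and 16834 in young fruiting bodies, with a largest mean log2 difference between stages of 0.20.

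The remaining 2 genes of this role rose in mature caps. A fatty acid desaturase of unstated position (CC1G_03449) gave 23549 and 22904 intensity units in mature caps, against 17931 and 17972 in young fruiting bodies. The difference was 0.37 ± 0.028 log2 units (adjusted p = 1.39e-05). The fatty acid hydroxylase (CC1G_12572) gave 15428 and 14896 intensity units in mature caps, against 12780 and 12430 in young fruiting bodies. The difference was 0.27 ± 0.037 log2 units (adjusted p = 0.000409). Both were highest in mature caps of all stages.

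**Figure D2:**
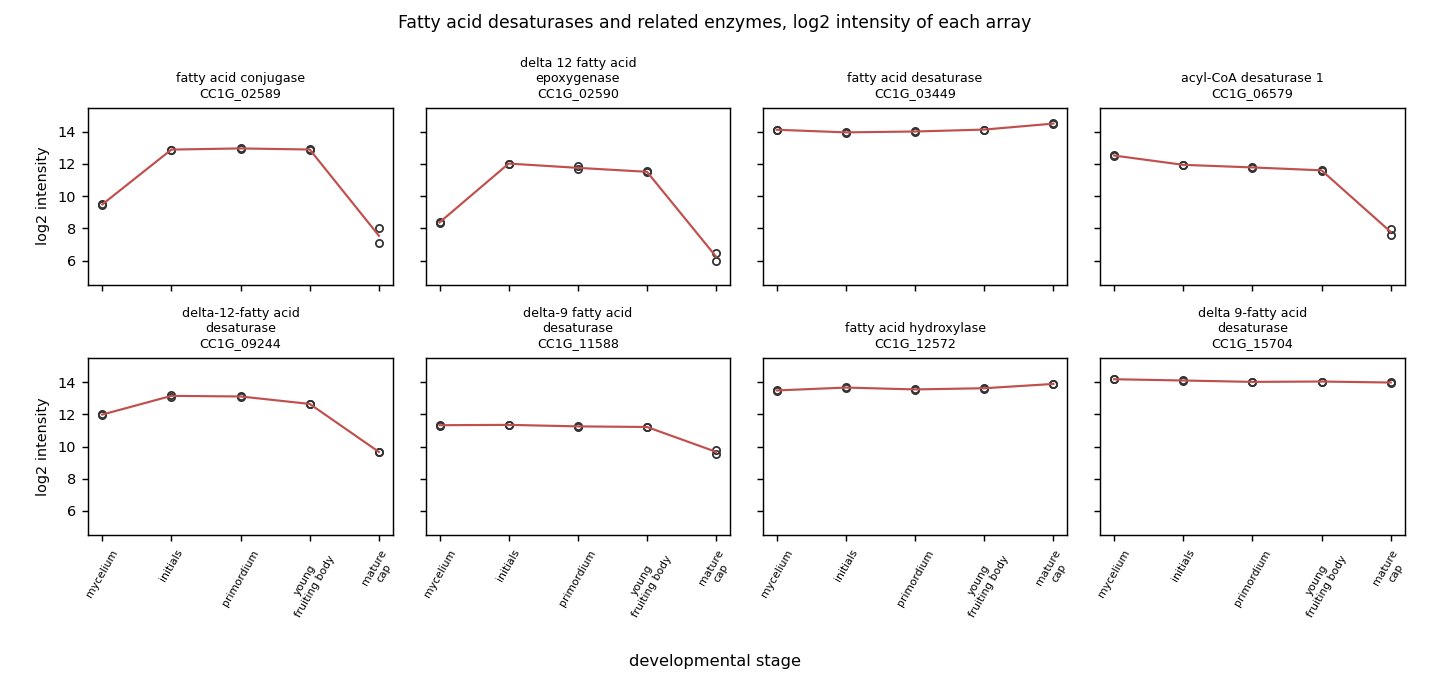
Log2 intensity (vertical axis) of the 8 fatty acid modification genes at the 5 stages (horizontal axis); open circles are the 2 arrays of a stage and the line joins their means. The conjugase and the Δ12 epoxygenase rose by 3.41 and 3.66 on the log2 scale in initials against mycelium, and 5 of the 8 genes dropped by more than 1 unit in mature caps against young fruiting bodies.

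Of the 16 sterol synthesis genes, 3 rose and 7 fell in initials against mycelium, and 5 rose and 8 fell in mature caps against young fruiting bodies. Over all genes 37.5% rose and 33.7% fell in the first of these comparisons and 38.3% rose and 40.7% fell in the other. Most of these steps were small: 1 of the 16 fell at least 2-fold in initials, and in mature caps 1 rose and 1 fell that far, beside 10.9% of all genes for the fall in initials and 12.3% and 14.8% in mature caps. Against mycelium 10 fell in mature caps and 4 rose, and 4 of the falls passed 2-fold, where 40.0% of all genes fell, 40.7% rose and 17.0% fell that far. Mycelium held the highest level of 7 of the 16, beside 25.0% of all genes, and mature caps the lowest of 7, beside 32.0%.

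Squalene synthase (CC1G_03978), the first enzyme committed to sterols, gave 5568 and 5155 intensity units in mature caps, against 10566 and 10165 in young fruiting bodies. Its arrays in the 4 earlier stages stayed between 9916 and 11555 units, and both mature cap arrays lay well below. The difference was -0.95 ± 0.057 log2 units (adjusted p = 4.11e-06). Squalene is next oxidised by squalene epoxidase, also called squalene monooxygenase, and the array held a gene under each name.

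The gene named squalene monooxygenase (CC1G_03119) declined over the first 4 stages. Its values were 3899 and 3774 intensity units in mycelium, 2735 and 2755 in initials, 1199 and 1339 in primordia, 578 and 574 in young fruiting bodies and 1262 and 1320 in mature caps. No array of a stage overlapped with those of the stage before, and young fruiting bodies were lowest. The differences were -0.48 ± 0.054 log2 units (adjusted p = 0.000168) for initials against mycelium, -1.12 ± 0.054 log2 units (adjusted p = 2.52e-05) for primordia against initials, -1.14 ± 0.054 log2 units (adjusted p = 2.33e-05) for young fruiting bodies against primordia and 1.17 ± 0.054 log2 units (adjusted p = 1.13e-06) for mature caps against young fruiting bodies. These 4 calls held in all 20 settings, and the gene made the only change of at least 2-fold among the members in primordia.

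The gene named squalene epoxidase (CC1G_03987) stayed between 9735 and 11206 units on all 10 arrays. Mature caps and young fruiting bodies overlapped, with 11078 and 11142 intensity units in mature caps, against 11206 and 11107 in young fruiting bodies. The difference was -0.01 ± 0.025 log2 units (adjusted p = 0.836). Its largest step was in young fruiting bodies against primordia, 0.18 ± 0.025 log2 units (adjusted p = 0.00148, lost in 1 of 20 settings). Lanosterol synthase (CC1G_05695), which closes the rings, gave 7851 and 7512 intensity units in mature caps, against 5689 and 5667 in young fruiting bodies. The rise was 0.44 ± 0.029 log2 units (adjusted p = 7.38e-06).

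The next step removes the C-14 methyl group, and 2 genes were named lanosterol 14-alpha-demethylase, the enzyme that azole fungicides inhibit. For CC1G_08364 the values were 14310 and 14613 intensity units in mycelium, 8233 and 8074 in initials, 5803 and 6252 in primordia, 5300 and 5363 in young fruiting bodies and 7506 and 5801 in mature caps. Mycelium was highest with no overlap, and the 4 later stages lay lower. Initials against mycelium gave -0.83 ± 0.11 log2 units (adjusted p = 0.000416), and mature caps against mycelium -1.13 ± 0.11 log2 units (adjusted p = 5.24e-05). The small difference between mature caps and young fruiting bodies, 0.31 ± 0.11 log2 units (adjusted p = 0.0364, lost in 12 of 20 settings), rested on single arrays: it was 0.12 (adjusted p = 0.0692) without mature cap replicate 1 and 0.49 (adjusted p = 0.000215) without mature cap replicate 2. Between primordium and initials its difference was -0.44 ± 0.11 log2 units (adjusted p = 0.0163, lost in 4 of 20 settings), and the call was lost without initials replicate 1 (-0.42, adjusted p = 0.0755), initials replicate 2 (-0.45, adjusted p = 0.0638) or primordium replicate 1 (-0.38, adjusted p = 0.0867). Without either mature cap array its adjusted p was 0.000598. The other copy, CC1G_07605, gave 11343 and 10769 intensity units in mature caps, against 13916 and 14091 in young fruiting bodies. The difference was -0.34 ± 0.032 log2 units (adjusted p = 5.18e-05). Its difference in initials against mycelium was -0.19 ± 0.032 log2 units (adjusted p = 0.00148, lost in 1 of 20 settings).

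C-14 sterol reductase, which removes the double bond that the demethylation leaves, was also named for 2 genes. CC1G_05509 gave 10918 and 11696 intensity units in mycelium, 5572 and 5392 in initials, 4128 and 4643 in primordia, 3593 and 3523 in young fruiting bodies and 2503 and 1115 in mature caps. Mean levels were lower at each later stage and mycelium lay above all other arrays, but the 2 mature cap arrays were far apart. Mature caps differed from mycelium by -2.76 ± 0.33 log2 units (adjusted p = 0.000164). The difference between mature caps and young fruiting bodies was -1.09 ± 0.33 log2 units (adjusted p = 0.0186, lost in 4 of 20 settings). It was -1.67 without mature cap replicate 1 and -0.51 without mature cap replicate 2, and the call was lost without young fruiting body replicate 1 (adjusted p = 0.0685) or 2 (adjusted p = 0.0638). The step of -1.04 ± 0.33 log2 units (adjusted p = 0.0248, lost in 5 of 20 settings) in initials kept its size without any 1 of the 4 arrays compared, at -1.09 to -0.99, but lost its call, with adjusted p between 0.0681 and 0.089. Without either mature cap array, whose spread enters the gene's error in the fit, it was called at an adjusted p of 2.79e-05. The other copy, CC1G_10937, stayed between 11338 and 12262 units up to the young fruiting body and gave 7423 and 6887 in mature caps. The difference was -0.74 ± 0.043 log2 units (adjusted p = 3.61e-06).

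The C-4 methyl groups are removed by an oxidase, a dehydrogenase and a keto reductase. C-4 methyl sterol oxidase (CC1G_04738) gave 13907 and 12488 intensity units in mature caps, against 15534 and 15900 in young fruiting bodies. The difference was -0.25 ± 0.052 log2 units (adjusted p = 0.00308, lost in 1 of 20 settings). C-3 sterol dehydrogenase (CC1G_03447) gave 14193 and 13697 intensity units in mature caps, against 10752 and 10688 in young fruiting bodies. The rise was 0.38 ± 0.030 log2 units (adjusted p = 2e-05). The 3-keto sterol reductase (CC1G_09970) fell in both large steps, with differences of -0.28 ± 0.046 log2 units (adjusted p = 0.00124, lost in 1 of 20 settings) in initials against mycelium and -0.31 ± 0.046 log2 units (adjusted p = 0.000592) in mature caps against young fruiting bodies.

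Sterol 24-C-methyltransferase adds the side chain methyl group that sets ergosterol apart from cholesterol. CC1G_06149 gave 8310 and 7504 intensity units in mature caps, against 5583 and 5385 in young fruiting bodies. The rise was 0.53 ± 0.065 log2 units (adjusted p = 0.000217). It followed a difference of -0.48 ± 0.065 log2 units (adjusted p = 0.000473) in initials against mycelium. CC1G_05622, the second gene of that name, was under the floor in all stages and no fold is given. A gene named delta-sterol C-methyltransferase (CC1G_07728) gave 14596 and 13513 intensity units in mature caps, against 15873 and 15978 in young fruiting bodies. The difference was -0.18 ± 0.038 log2 units (adjusted p = 0.00375, lost in 1 of 20 settings).

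The last steps shift and add double bonds. C-8 sterol isomerase (CC1G_09961) gave 10982 and 11141 intensity units in initials, against 13164 and 13279 in mycelium. The difference was -0.26 ± 0.055 log2 units (adjusted p = 0.00446, lost in 1 of 20 settings), and its mature cap arrays spanned those of young fruiting bodies, with -0.08 ± 0.055 log2 units (adjusted p = 0.229). C-22 sterol desaturase (CC1G_01671), the enzyme that puts in the side chain double bond, gave 7526 and 7481 intensity units in mycelium, 10900 and 11096 in initials, 12039 and 11882 in primordia, 12314 and 11691 in young fruiting bodies and 9355 and 9008 in mature caps. It was lowest in mycelium and highest in primordia and young fruiting bodies. Initials differed from mycelium by 0.55 ± 0.035 log2 units (adjusted p = 8.68e-06) and mature caps from young fruiting bodies by -0.39 ± 0.035 log2 units (adjusted p = 4.02e-05).

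**Figure D3:**
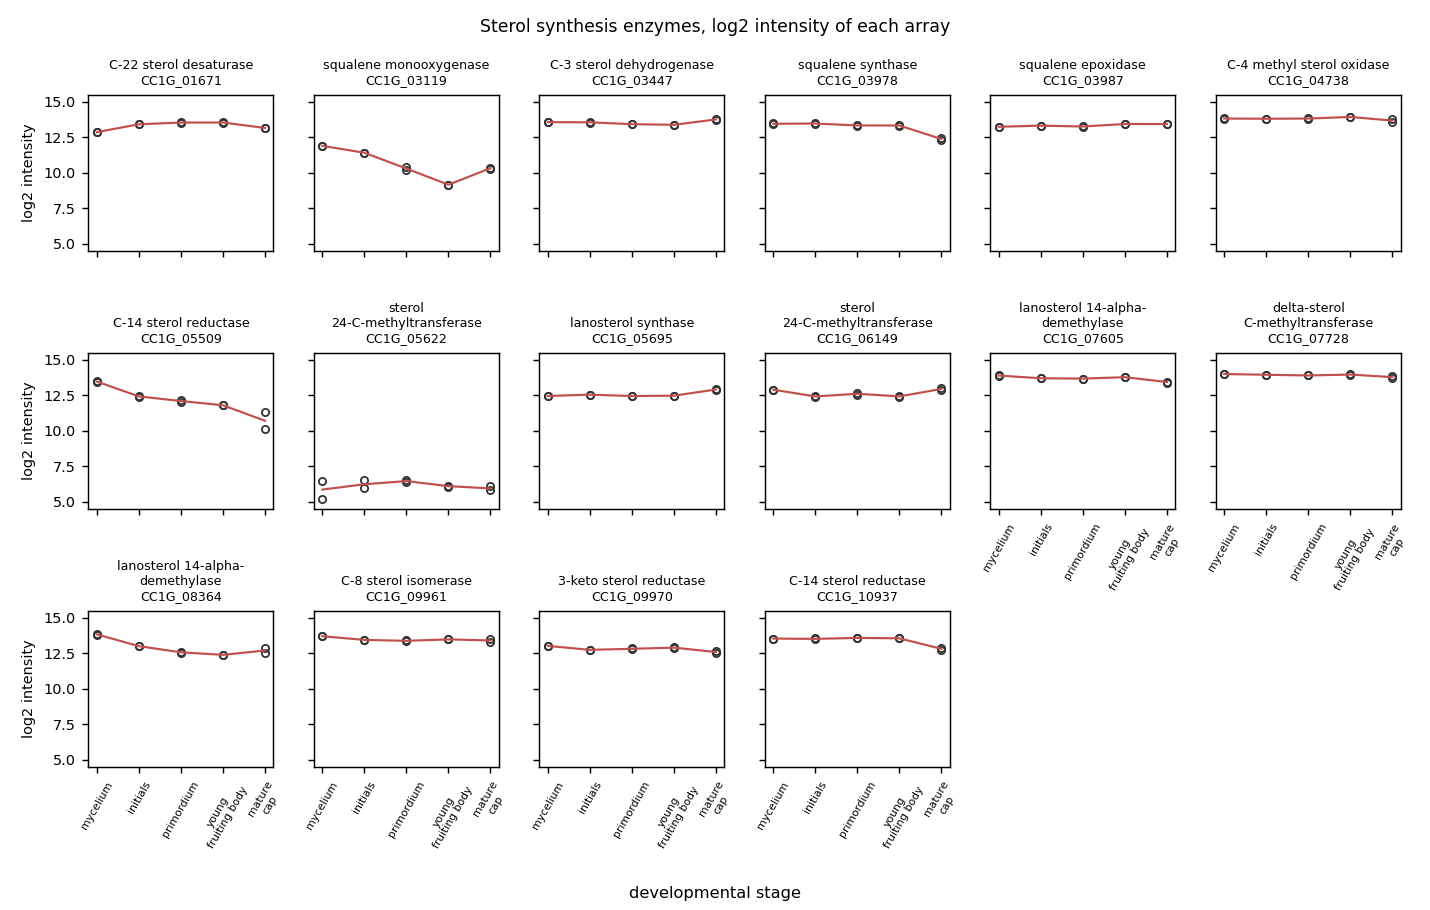
Log2 intensity (vertical axis) of the 16 sterol synthesis genes at the 5 stages (horizontal axis), in locus order; open circles are the 2 arrays of a stage and the line joins their means. Squalene monooxygenase dropped by 0.48, 1.12 and 1.14 over the first 3 steps and rose by 1.17 in mature caps, while squalene epoxidase stayed near 13.3, and the circles of C-14 sterol reductase CC1G_05509 part in mature caps.

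Of the 8 genes of sterol conjugation and binding, 4 rose and 2 fell in initials, beside 71.1% of all genes called. In mature caps against young fruiting bodies 3 of the 8 rose and 1 fell, beside 79.0%. Sterol 3-beta-glucosyltransferase (CC1G_03440), which joins glucose to sterols, gave 1301 and 1285 intensity units in mycelium, 1708 and 1754 in initials, 1863 and 1819 in primordia, 1942 and 1919 in young fruiting bodies and 7931 and 7689 in mature caps. Both mature cap arrays lay far above all others, the largest rise of this role, with a difference from young fruiting bodies of 2.02 ± 0.030 log2 units (adjusted p = 1.04e-08). A second gene, UDP-glucose:sterol glycosyltransferase (CC1G_01691), gave 9292 and 9346 intensity units in mature caps, against 7099 and 6953 in young fruiting bodies. The rise was 0.41 ± 0.027 log2 units (adjusted p = 7.15e-06). It followed a rise of 0.55 ± 0.027 log2 units (adjusted p = 2.38e-06) in initials.

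Sterol O-acyltransferase (CC1G_00886), which makes sterol esters for storage, gave 7561 and 7356 intensity units in mature caps, against 4877 and 5122 in young fruiting bodies. It rose by 0.58 ± 0.034 log2 units (adjusted p = 3.86e-06). The rise followed a difference of -0.20 ± 0.034 log2 units (adjusted p = 0.00155, lost in 1 of 20 settings) in initials against mycelium. Sterol carrier protein 2 (CC1G_13192), a lipid-binding protein of peroxisomes, moved the other way. Its values were 6058 and 5817 intensity units in mycelium, 4606 and 4746 in initials, 4297 and 4227 in primordia, 3813 and 3555 in young fruiting bodies and 2284 and 2396 in mature caps. Each stage lay below the one before with no overlap, and the mature cap differed from mycelium by -1.34 ± 0.046 log2 units (adjusted p = 1.84e-07). The 4 oxysterol-binding proteins, which move sterols between membranes, did not pass the test between mature cap and young fruiting body, with log2 differences from -0.08 to 0.01. In initials against mycelium, oxysterol-binding proteins were among the 4 of the 8 genes of this role that rose.

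Most of the 11 sphingolipid genes were nearly flat, and a few had wide swings. In initials against mycelium 3 rose and 4 fell, none by 2-fold, where 37.5% of all genes rose and 33.7% fell. In mature caps against young fruiting bodies 3 rose and 6 fell, beside 79.0% of all genes called in either direction. By at least 2-fold 2 rose and 1 fell, beside 12.3% and 14.8% of all genes, and the median log2 difference was -0.09.

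The 2 large rises were both of genes named sphingomyelin phosphodiesterase, an enzyme known from animals for splitting the head group off sphingomyelin to leave ceramide. CC1G_07717 gave 809 and 803 intensity units in mycelium, 1499 and 1490 in initials, 1409 and 1368 in primordia, 1466 and 1427 in young fruiting bodies and 14513 and 14670 in mature caps. All arrays before the mature cap were at or under 1499 units, and both mature cap arrays stood far above the highest of them. The difference from young fruiting bodies was 3.33 ± 0.028 log2 units (adjusted p = 2.57e-09) and from mycelium 4.18 ± 0.028 log2 units (adjusted p = 4.68e-10), and initials had already risen by 0.89 ± 0.028 log2 units (adjusted p = 2.96e-07).

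CC1G_02845, the second gene of that name, gave 630 and 633 intensity units in mycelium, 383 and 398 in initials, 274 and 285 in primordia, 240 and 245 in young fruiting bodies and 5160 and 4783 in mature caps. It declined over the first 4 stages with no overlap between a stage and the next, and then stood highest in mature caps. The steps were -0.69 ± 0.044 log2 units (adjusted p = 8.94e-06) in initials against mycelium, -0.48 ± 0.044 log2 units (adjusted p = 0.000255) in primordia against initials and 4.36 ± 0.044 log2 units (adjusted p = 3.78e-09) in mature caps against young fruiting bodies. The third, CC1G_02835, moved the other way in mature caps, with 2445 and 2576 intensity units in mature caps, against 4667 and 4772 in young fruiting bodies. The difference was -0.91 ± 0.043 log2 units (adjusted p = 1.2e-06). In initials it was higher than in mycelium, by 0.46 ± 0.043 log2 units (adjusted p = 6.54e-05).

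Sphingolipid C9-methyltransferase (CC1G_02451), which adds the C9 methyl group of fungal glucosylceramides, gave 13511 and 13339 intensity units in mycelium, 11786 and 12130 in initials, 11286 and 11846 in primordia, 11148 and 11264 in young fruiting bodies and 5128 and 5286 in mature caps. Mycelium was highest and mature caps lowest, with no overlap of either with any other stage. The difference was -1.11 ± 0.034 log2 units (adjusted p = 1.75e-07) for mature caps against young fruiting bodies.

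The other enzymes of glucosylceramide synthesis moved by at most 0.32 on the log2 scale in every step. Dihydroceramide delta(4)-desaturase (CC1G_05513) gave 11348 and 11575 intensity units in mature caps, against 12105 and 12293 in young fruiting bodies. The difference was -0.09 ± 0.029 log2 units (adjusted p = 0.0235, lost in 8 of 20 settings). The delta 8-sphingolipid desaturase (CC1G_10534) gave 8266 and 8043 intensity units in mature caps, against 9804 and 9423 in young fruiting bodies. The difference was -0.24 ± 0.043 log2 units (adjusted p = 0.00181). Glucosylceramide synthase (CC1G_13695), which adds the glucose, was lowest in mycelium, with 6394 and 6495 intensity units in initials, against 5200 and 5136 in mycelium. The rise was 0.32 ± 0.029 log2 units (adjusted p = 5.43e-05).

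Sphingosine hydroxylase (CC1G_11555), which hydroxylates the long-chain base, stayed between 8129 and 8771 units on all arrays, and mature caps differed from young fruiting bodies by -0.02 ± 0.029 log2 units (adjusted p = 0.486). Inositolphosphorylceramide synthase (CC1G_07984), which makes the inositol branch of fungal sphingolipids, gave 7149 and 6895 intensity units in mycelium, 5710 and 5601 in initials, 6231 and 5866 in primordia, 6483 and 6638 in young fruiting bodies and 8423 and 8130 in mature caps. It was lowest in initials and highest in mature caps, with differences of -0.31 ± 0.040 log2 units (adjusted p = 0.00036) in initials against mycelium and 0.34 ± 0.040 log2 units (adjusted p = 0.000188) in mature caps against young fruiting bodies. The phospholipase C for that branch (CC1G_06593), which hydrolyses inositol phosphorylsphingolipids, fell by 0.21 ± 0.046 log2 units (adjusted p = 0.00936, lost in 2 of 20 settings) in young fruiting bodies against primordia and differed by -0.38 ± 0.046 log2 units (adjusted p = 0.000182) between mature caps and mycelium. Sphingosine-1-phosphate phosphatase (CC1G_09254), which removes the phosphate of the long-chain base, was lower in mature caps than in mycelium. The difference was -0.49 ± 0.047 log2 units (adjusted p = 4.5e-05).

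**Figure D4:**
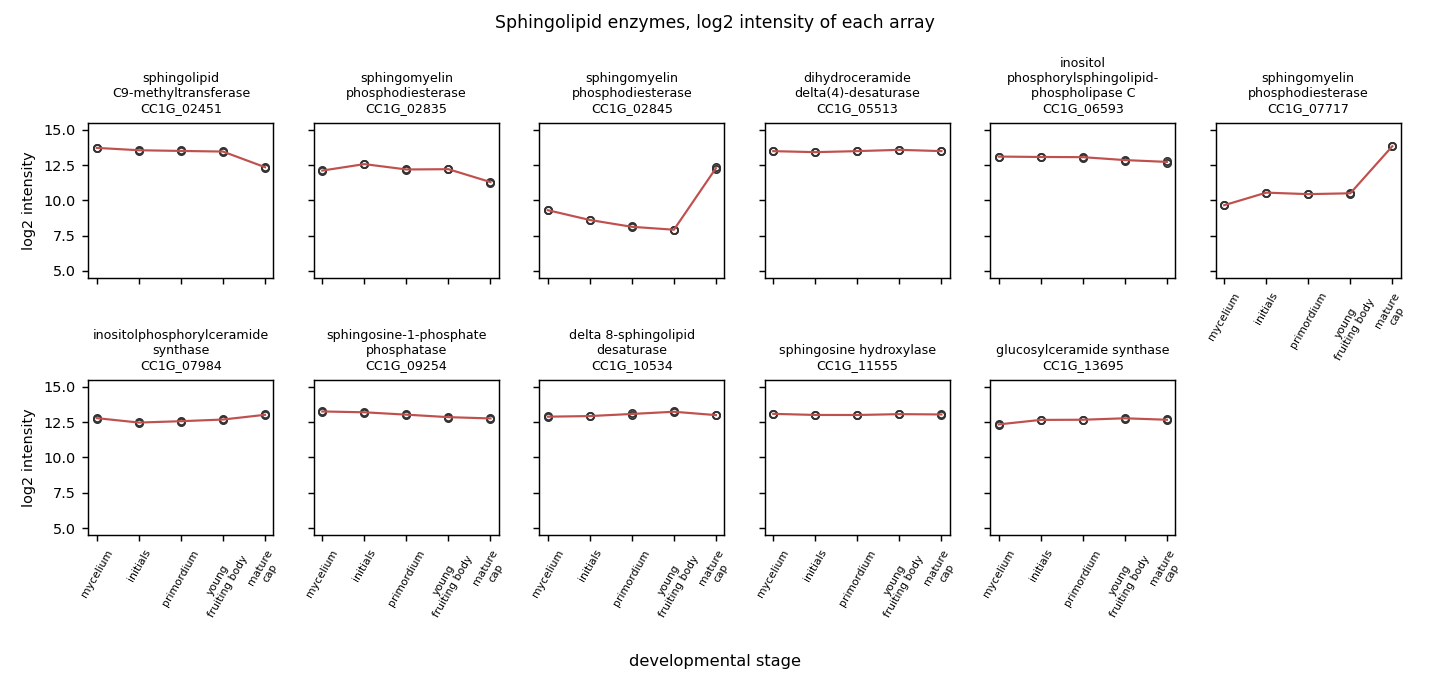
Log2 intensity (vertical axis) of the 11 sphingolipid genes at the 5 stages (horizontal axis); open circles are the 2 arrays of a stage and the line joins their means. In mature caps against young fruiting bodies the sphingomyelin phosphodiesterases CC1G_02845 and CC1G_07717 rose by 4.36 and 3.33 on the log2 scale, while the third of that name and the C9-methyltransferase fell.

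Fatty acids enter other pathways as CoA esters, and the array held 5 genes of this activation, of which 2 rose and 1 fell in initials and 3 rose and 1 fell in mature caps against young fruiting bodies. Of all genes 71.1% and 79.0% were called in these comparisons. Long-chain acyl-CoA synthetase (CC1G_11231) gave 2278 and 2182 intensity units in mycelium, 9259 and 8628 in initials, 7591 and 7797 in primordia, 6243 and 6266 in young fruiting bodies and 1225 and 1263 in mature caps. Initials were highest and mature caps lowest, with no overlap of either with any other stage. The differences were 2.00 ± 0.043 log2 units (adjusted p = 5.96e-08) in initials against mycelium, -0.30 ± 0.043 log2 units (adjusted p = 0.00153) in young fruiting bodies against primordia and -2.33 ± 0.043 log2 units (adjusted p = 2.11e-08) in mature caps against young fruiting bodies.

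The fatty acid activator named Faa4 (CC1G_01566), after a yeast acyl-CoA synthetase, gave 2014 and 1955 intensity units in mycelium, 1862 and 1785 in initials, 1143 and 1305 in primordia, 741 and 710 in young fruiting bodies and 694 and 652 in mature caps. It declined over the middle stages, with differences of -0.58 ± 0.068 log2 units (adjusted p = 0.000688, lost in 1 of 20 settings) in primordia against initials and -0.75 ± 0.068 log2 units (adjusted p = 0.000207) in young fruiting bodies against primordia, and mature caps differed from mycelium by -1.56 ± 0.068 log2 units (adjusted p = 6.51e-07). Acyl-CoA synthetase CC1G_05257 fell over the same 2 steps, with differences of -0.45 ± 0.046 log2 units (adjusted p = 0.000399) and -0.52 ± 0.046 log2 units (adjusted p = 0.000204). Acyl-CoA synthetase CC1G_06115 was higher in every later stage than in mycelium and differed between mature caps and mycelium by 0.76 ± 0.026 log2 units (adjusted p = 1.98e-07). A CoA-transferase (CC1G_08888) was lowest in initials, at 4489 and 4599 units, and rose in young fruiting bodies against primordia by 0.64 ± 0.049 log2 units (adjusted p = 0.000108).

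Of the 20 beta-oxidation genes, 11 rose and 4 fell in initials against mycelium, none by 2-fold, where 37.5% of all genes rose and 33.7% fell. Through the middle of the series falls outnumbered rises, at 2 up and 5 down in primordia and 2 up and 8 down in young fruiting bodies. Over all genes 23.5% rose and 24.5% fell in primordia, and 24.0% rose and 24.8% fell in young fruiting bodies. In mature caps 11 rose and 8 fell against young fruiting bodies, where 38.3% of all genes rose and 40.7% fell. Of these, 4 rises and 3 falls were of at least 2-fold, beside 12.3% and 14.8% of all genes, and the median log2 difference was 0.39.

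The rises in mature caps included 5 genes named acyl-CoA dehydrogenase, the enzymes that make the first double bond of the beta-oxidation cycle. CC1G_06408 gave 6241 and 6302 intensity units in mycelium, 6630 and 7010 in initials, 7200 and 6729 in primordia, 5905 and 5965 in young fruiting bodies and 13732 and 13634 in mature caps. Its 8 earlier arrays lay between 5905 and 7200 units and both mature cap arrays well above them. The difference was 1.21 ± 0.042 log2 units (adjusted p = 2.86e-07). CC1G_00086 gave 6796 and 6109 intensity units in mature caps, against 2858 and 2811 in young fruiting bodies. The difference was 1.18 ± 0.051 log2 units (adjusted p = 7.88e-07). It followed a difference of -0.74 ± 0.051 log2 units (adjusted p = 7.62e-05) in young fruiting bodies against primordia. Mature caps and mycelium overlapped. The difference was -0.07 ± 0.051 log2 units (adjusted p = 0.214).

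The other 3 were lowest in mycelium and highest in mature caps. CC1G_06402 gave 2630 and 2581 intensity units in mycelium, 4444 and 4446 in initials, 4657 and 4509 in primordia, 5382 and 5393 in young fruiting bodies and 9559 and 9230 in mature caps. Mycelium was lowest and mature caps highest with no overlap, and their difference was 1.85 ± 0.030 log2 units (adjusted p = 7.08e-09). Its neighbour CC1G_06403 differed by 1.53 ± 0.038 log2 units (adjusted p = 4.18e-08) between mature caps and mycelium, and CC1G_09942 by 1.37 ± 0.027 log2 units (adjusted p = 1.53e-08).

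Further along the cycle, enoyl-CoA hydratase/isomerase CC1G_05803, which adds water to the double bond, gave 7760 and 7939 intensity units in mature caps, against 3813 and 3739 in young fruiting bodies. It rose by 1.06 ± 0.053 log2 units (adjusted p = 1.76e-06). The 3-hydroxyacyl-CoA dehydrogenase (CC1G_04873), which oxidises the hydroxyl group, gave 9524 and 9528 intensity units in mature caps, against 4498 and 4538 in young fruiting bodies. It rose by 1.08 ± 0.031 log2 units (adjusted p = 1.22e-07). An enoyl-CoA hydratase/carnitine racemase (CC1G_00729) fell by 0.52 ± 0.033 log2 units (adjusted p = 6.36e-05) in primordia against initials and rose by 0.80 ± 0.033 log2 units (adjusted p = 6.83e-07) in mature caps. Alpha-methylacyl-CoA racemase (CC1G_06407), which readies branched acids for oxidation, rose by 0.51 ± 0.035 log2 units (adjusted p = 8.02e-06) in mature caps.

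The 3 largest falls in mature caps were of other enzymes of the cycle. The gene spelled acyl-CoA oxydase (CC1G_06470), named for the peroxisomal first step, gave 5196 and 5134 intensity units in mycelium, 6334 and 6307 in initials, 4951 and 5384 in primordia, 3669 and 3721 in young fruiting bodies and 257 and 411 in mature caps. Both mature cap arrays were far below every other array, and the difference was -3.51 ± 0.19 log2 units (adjusted p = 2.6e-06). The 2,4-dienoyl-CoA reductase (CC1G_05835), needed for polyunsaturated chains, gave 1796 and 1789 intensity units in mycelium, 3078 and 3153 in initials, 2814 and 3224 in primordia, 1737 and 1800 in young fruiting bodies and 732 and 775 in mature caps. It was highest in initials and primordia and lowest in mature caps, with differences of 0.80 ± 0.065 log2 units (adjusted p = 3.28e-05), -0.77 ± 0.065 log2 units (adjusted p = 0.00016) and -1.23 ± 0.065 log2 units (adjusted p = 2.24e-06) in initials, young fruiting bodies and mature caps against the stage before each. A 3-ketoacyl-CoA thiolase (CC1G_13647), which releases acetyl-CoA at the end of each turn, held 5312 to 5851 units up to the young fruiting body and 2531 and 2694 in mature caps. The difference was -1.05 ± 0.040 log2 units (adjusted p = 4.52e-07). Acyl-CoA oxidase CC1G_15249 was highest in mycelium and differed by -0.90 ± 0.041 log2 units (adjusted p = 8.11e-07) between mature caps and mycelium.

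Of the 27 lipases, 17 rose and 4 fell in initials against mycelium, 7 of the rises and 1 of the falls by at least 2-fold, and the median log2 difference was 0.26. Over all genes 37.5% rose and 33.7% fell, 9.01% and 10.9% by at least 2-fold. No lipase was highest in mycelium, beside 25.0% of all genes, and 11 were lowest there, beside 28.7%. In primordia 6 rose and 11 fell and in young fruiting bodies 3 rose and 11 fell against the stage before, where 23.5% and 24.0% of all genes rose and 24.5% and 24.8% fell. In mature caps against young fruiting bodies 11 rose and 12 fell, 4 and 3 of them by at least 2-fold, where 38.3% rose and 40.7% fell over all genes, 12.3% and 14.8% by that much. In mature caps against mycelium 18 lipases rose and 7 fell, 8 and 2 of them by at least 2-fold, where 40.7% and 40.0% of all genes rose and fell, 14.8% and 17.0% by that much.

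The largest rise in initials was of a gene named only lipase (CC1G_03312), with 225 and 258 intensity units in mycelium, 6065 and 6101 in initials, 4199 and 4532 in primordia, 3547 and 3831 in young fruiting bodies and 1862 and 1259 in mature caps. The 2 mycelium arrays stood far below all others, initials were highest, and levels were lower in mature caps than in young fruiting bodies. The differences were 4.66 ± 0.17 log2 units (adjusted p = 6.19e-07) in initials against mycelium and -1.27 ± 0.17 log2 units (adjusted p = 0.000369) in mature caps against young fruiting bodies. A GDSL lipase/acylhydrolase (CC1G_06458), of a family of esterases named for a sequence motif, gave 274 and 311 intensity units in mycelium, 1502 and 1495 in initials, 3041 and 2768 in primordia, 2988 and 3006 in young fruiting bodies and 551 and 562 in mature caps. It rose by 2.36 ± 0.067 log2 units (adjusted p = 1.94e-07) in initials and again by 0.95 ± 0.067 log2 units (adjusted p = 9.15e-05) in primordia, and fell by 2.43 ± 0.067 log2 units (adjusted p = 1.08e-07) in mature caps.

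Genes named carotenoid ester lipase, after a fungal enzyme that frees carotenoids from their esters, numbered 5 and took different courses. CC1G_03408 gave 1685 and 1684 intensity units in mycelium, 8344 and 8439 in initials, 9034 and 8393 in primordia, 7277 and 6992 in young fruiting bodies and 6373 and 6537 in mature caps, with mycelium below all other stages and a rise of 2.32 ± 0.042 log2 units (adjusted p = 3.01e-08) in initials. CC1G_07672 gave 167 and 179 intensity units in mycelium, 785 and 841 in initials, 493 and 526 in primordia, 428 and 425 in young fruiting bodies and 316 and 459 in mature caps, likewise lowest in mycelium and highest in initials. The rise was 2.23 ± 0.16 log2 units (adjusted p = 1.46e-05). Its lower level in primordia than in initials, -0.67 ± 0.16 log2 units (adjusted p = 0.0121, lost in 4 of 20 settings), lost its call without initials replicate 2 (-0.62, adjusted p = 0.0671) or primordium replicate 1 (-0.63, adjusted p = 0.0645). Without either mature cap array its adjusted p was 0.000395.

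CC1G_00636 stood out in mature caps. Its values were 478 and 515 intensity units in mycelium, 211 and 207 in initials, 377 and 319 in primordia, 392 and 405 in young fruiting bodies and 11158 and 11191 in mature caps. The 8 arrays of the other stages were at or under 515 units, with initials lowest, and both mature cap arrays were far above. The differences were -1.24 ± 0.077 log2 units (adjusted p = 7.71e-06) in initials against mycelium, 0.73 ± 0.077 log2 units (adjusted p = 0.000453) in primordia against initials and 4.81 ± 0.077 log2 units (adjusted p = 1.34e-08) in mature caps against young fruiting bodies. The adjacent pair CC1G_12510 and CC1G_12511 declined from initials on. CC1G_12510 differed between mature caps and mycelium by -1.50 ± 0.032 log2 units (adjusted p = 2.11e-08), and CC1G_12511 by -1.30 ± 0.067 log2 units (adjusted p = 1.6e-06).

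Of the other lipases, 3 more, 2 of them named triacylglycerol lipase for the enzyme that empties fat stores, rose in mature caps by at least 2-fold. Triacylglycerol lipase CC1G_09365 gave 696 and 721 intensity units in mycelium, 1563 and 1520 in initials, 1206 and 1089 in primordia, 1043 and 1088 in young fruiting bodies and 4653 and 4617 in mature caps. Its mature cap arrays were highest and its mycelium arrays lowest, and the steps were 1.12 ± 0.052 log2 units (adjusted p = 1.89e-06) in initials and 2.12 ± 0.052 log2 units (adjusted p = 6.63e-08) in mature caps. Triacylglycerol lipase CC1G_02011 gave 1807 and 1846 intensity units in mycelium, 1658 and 1611 in initials, 2228 and 2130 in primordia, 2610 and 2739 in young fruiting bodies and 8677 and 8995 in mature caps, a course of rises from initials on that ended with 1.72 ± 0.040 log2 units (adjusted p = 4.99e-08) in mature caps. Lipase CC1G_01805 gave 309 and 287 intensity units in mycelium, 592 and 621 in initials, 350 and 322 in primordia, 198 and 211 in young fruiting bodies and 1443 and 1365 in mature caps. It rose by 1.03 ± 0.063 log2 units (adjusted p = 7.21e-06) in initials, fell by 0.85 ± 0.063 log2 units (adjusted p = 0.000111) in primordia, fell by 0.72 ± 0.063 log2 units (adjusted p = 0.000185) in young fruiting bodies and rose by 2.78 ± 0.063 log2 units (adjusted p = 4.57e-08) in mature caps, where it was highest.

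Of the others, triacylglycerol lipase CC1G_09522 was highest in initials, at 7406 and 7343 units, and fell by 0.67 ± 0.038 log2 units (adjusted p = 4.25e-05) in primordia and fell by 0.55 ± 0.038 log2 units (adjusted p = 7.75e-05) in young fruiting bodies. A lipase I (CC1G_03614) gave 291 and 130 units in mature caps, against 733 and 755 in young fruiting bodies. The difference was -1.93 ± 0.32 log2 units (adjusted p = 0.00116). The lipase I CC1G_03618 stayed under the floor on both arrays of every stage.

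**Figure D5:**
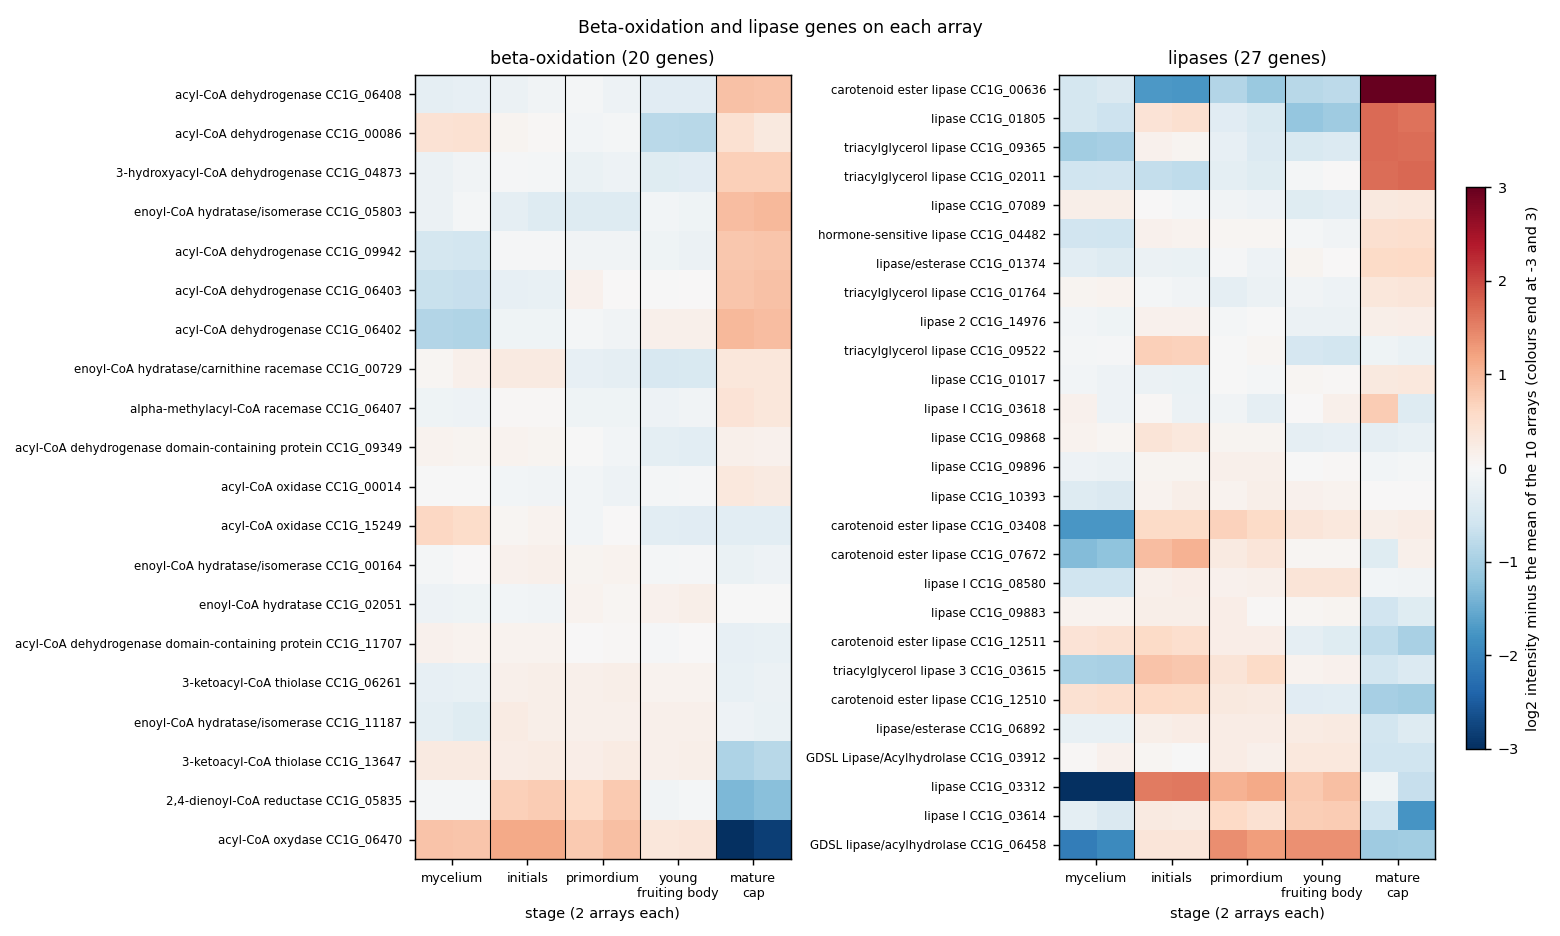
Log2 intensity of each beta-oxidation gene (left, 20 rows) and lipase (right, 27 rows) on each of the 10 arrays (columns, 2 per stage), minus the gene's mean over the arrays; red is above that mean and blue below it, and colours end at -3 and 3. Rows run from the highest to the lowest difference of mature caps minus young fruiting bodies, from 1.21 for CC1G_06408 to -3.51 for CC1G_06470 on the left and from 4.81 for CC1G_00636 to -2.43 for CC1G_06458 on the right.

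All 10 genes of the phospholipase role were called between mature cap and young fruiting body, 4 higher and 6 lower in mature caps, beside 79.0% of all genes called. In mature caps 2 of the 10 were higher and 8 lower than in mycelium, where 80.7% of all genes were called. A phospholipase of unstated type (CC1G_03363) gave 8084 and 7891 intensity units in mycelium, 9597 and 9493 in initials, 5911 and 6939 in primordia, 2941 and 2768 in young fruiting bodies and 937 and 892 in mature caps. After initials it declined with no overlap between a stage and the next, with differences of -0.58 ± 0.075 log2 units (adjusted p = 0.00107, lost in 1 of 20 settings) in primordia against initials, -1.17 ± 0.075 log2 units (adjusted p = 5.92e-05) in young fruiting bodies against primordia and -1.64 ± 0.075 log2 units (adjusted p = 1.06e-06) in mature caps against young fruiting bodies. Mature caps differed from mycelium by -3.13 ± 0.075 log2 units (adjusted p = 3.57e-08). Phospholipase CC1G_14629 gave 1966 and 1759 intensity units in mature caps, against 4501 and 4340 in young fruiting bodies. It fell by 1.25 ± 0.055 log2 units (adjusted p = 8.67e-07). The role also held the phospholipase A-2-activating protein (CC1G_01210), by its name an activator and not itself a phospholipase. It gave 3587 and 3571 intensity units in mature caps, against 7248 and 7275 in young fruiting bodies. It fell by 1.02 ± 0.031 log2 units (adjusted p = 1.49e-07).

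Phospholipase B (CC1G_06821), which strips both acyl chains from a phospholipid, was lower in mature caps than in mycelium. The difference was -1.22 ± 0.043 log2 units (adjusted p = 2.3e-07). The phosphoinositide-specific phospholipase C (CC1G_07213), a signalling enzyme, gave 10728 and 10144 intensity units in mycelium, 4957 and 5126 in initials, 5039 and 4571 in primordia, 4419 and 4456 in young fruiting bodies and 7300 and 7117 in mature caps. Mycelium was highest and mature caps came next, with steps of -1.05 ± 0.053 log2 units (adjusted p = 2.67e-06) in initials and 0.70 ± 0.053 log2 units (adjusted p = 1.45e-05) in mature caps. The hydrolase of N-acyl-phosphatidylethanolamine (CC1G_02616), which in animals releases signalling amides, gave 8881 and 8462 intensity units in mycelium, 5785 and 5951 in initials, 4316 and 4606 in primordia, 3175 and 3107 in young fruiting bodies and 6809 and 6411 in mature caps. It declined up to the young fruiting body and rose by 1.07 ± 0.048 log2 units (adjusted p = 9.56e-07) in mature caps. Patatin-like phospholipase CC1G_14640 rose by 0.83 ± 0.041 log2 units (adjusted p = 1.68e-06) in mature caps and phospholipase C CC1G_07975 by 0.58 ± 0.031 log2 units (adjusted p = 2.17e-06). Lysophospholipase I (CC1G_01399) fell by 0.61 ± 0.038 log2 units (adjusted p = 7.3e-06) in initials.

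The 5 acyltransferases build glycerolipids, and 3 of them rose and 1 fell in mature caps against young fruiting bodies, where 38.3% of all genes rose and 40.7% fell. Phospholipid:diacylglycerol acyltransferase (CC1G_02002), which makes triacylglycerol from a phospholipid's acyl chain, gave 4201 and 4018 intensity units in mycelium, 6058 and 6106 in initials, 7186 and 7109 in primordia, 8127 and 8278 in young fruiting bodies and 10693 and 10678 in mature caps. Each stage lay above the one before with no overlap, and mature caps differed from mycelium by 1.38 ± 0.030 log2 units (adjusted p = 2.21e-08). The diacylglycerol O-acyltransferase (CC1G_09880), which makes triacylglycerol from acyl-CoA, gave 6310 and 6181 intensity units in mycelium, 7866 and 7677 in initials, 8908 and 8318 in primordia, 9186 and 9249 in young fruiting bodies and 7699 and 7825 in mature caps, highest in young fruiting bodies. The differences were 0.32 ± 0.038 log2 units (adjusted p = 0.000254) in initials and -0.25 ± 0.038 log2 units (adjusted p = 0.000717) in mature caps. The 1-acylglycerol-3-phosphate O-acyltransferase (CC1G_01408), which makes phosphatidic acid, gave 10598 and 11002 intensity units in mature caps, against 6405 and 6169 in young fruiting bodies. It rose by 0.78 ± 0.035 log2 units (adjusted p = 9.18e-07). Glycerol-3-phosphate O-acyltransferase (CC1G_04274), the first step of the route, gave 9689 and 10068 intensity units in mature caps, against 8453 and 8568 in young fruiting bodies. The difference was 0.21 ± 0.033 log2 units (adjusted p = 0.000691).

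Lipid genes outside the name rule were counted from product words of 5 neighbouring pathways, 59 genes in all. Of these, 51 were called between mature cap and young fruiting body, 24 higher and 27 lower in mature caps, beside 79.0% of all genes (38.3% higher and 40.7% lower). The counts of rises and falls in mature caps that follow are of this comparison. Of the 14 genes of mevalonate and isoprenoid synthesis, a set that by its words also holds protein prenyltransferases, 1 rose and 12 fell in mature caps. Hydroxymethylglutaryl-CoA synthase (CC1G_00827) differed there by -0.46 on the log2 scale, hydroxymethylglutaryl-CoA reductase (CC1G_05275), the main control point of sterol synthesis, by -0.43 log2 units, and farnesyl diphosphate synthetase (CC1G_02580) by -0.60 log2 units. The largest fall of that set, -1.65 log2 units, was of the type I prenyltransferase CC1G_03414, which prenylates proteins. In initials 6 of the 14 rose and 4 fell, where 37.5% of all genes rose and 33.7% fell. The largest change of the set there was of farnesyltransferase subunit beta (CC1G_05578), also of protein prenylation, which differed by -2.71 log2 units in initials against mycelium and by 1.66 log2 units in young fruiting bodies against primordia. The largest rise in initials was of phosphomevalonate kinase (CC1G_14174), at 1.23 log2 units.

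Acetyl-CoA supply split evenly in mature caps, with 3 of 6 genes up and 3 down. ATP citrate lyase isoform 2 (CC1G_09654), which makes the cytosolic acetyl-CoA for fatty acid synthesis, differed there by -0.76 log2 units, and acetyl-CoA synthetase CC1G_03811 by -0.99 log2 units. Of 7 carnitine genes, 6 rose and 1 fell in mature caps, where 38.3% of all genes rose and 40.7% fell. A carnitine/acyl carnitine carrier takes acyl groups across the mitochondrial membrane. One gene of that name, CC1G_06087, gave 12790 and 12382 intensity units in mature caps, against 1873 and 1847 in young fruiting bodies. The difference was 2.76 log2 units, after -1.92 log2 units in initials against mycelium. Another gene of that name, CC1G_01742, rose by 0.33 log2 units in mature caps and by 0.25 log2 units in initials against mycelium.

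Of 15 peroxisomal genes, 12 rose and 1 fell in initials against mycelium, 9 rose and 2 fell in mature caps against young fruiting bodies, and 14 were higher and none lower in mature caps than in mycelium. Over all genes 37.5% rose and 33.7% fell in the first of these comparisons, 38.3% rose and 40.7% fell in the second, and 40.7% rose and 40.0% fell in the third. The receptor of peroxisomal targeting signal 1 (CC1G_04484), which imports most peroxisomal enzymes, differed by 1.51 log2 units between mature caps and mycelium. The peroxisomal hydratase-dehydrogenase-epimerase (CC1G_06396), which carries out the middle steps of beta-oxidation, rose by 1.18 log2 units in mature caps. Of 17 phospholipid synthesis genes, 9 rose and 6 fell in initials and 5 rose and 9 fell in mature caps, where 71.1% and 79.0% of all genes were called. The largest changes there were of phosphatidylserine decarboxylases, at 4.65 log2 units and -6.65 log2 units for CC1G_09208 and 5.25 log2 units and -3.66 log2 units for CC1G_09238, in initials against mycelium and in mature caps against young fruiting bodies. The mature cap arrays of CC1G_09208, at 155 and 116 units, lay close to their floors of 105.7 and 111.5 units. The size of its fall is therefore uncertain. Not all genes of that name took this course: CC1G_09241 differed by -0.53 log2 units and 0.48 log2 units in the same 2 comparisons.

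Some members lie next to each other in the gene order of the RefSeq annotation of assembly CC3, in which all 113 were found. The conjugase and the Δ12 epoxygenase are adjacent, and their log2 differences stand side by side as 3.41 and 3.66 in initials. The carotenoid ester lipases CC1G_12510 and CC1G_12511 are adjacent too, at -0.61 log2 units and -0.53 log2 units in young fruiting bodies against primordia. Lipase I CC1G_03614 and triacylglycerol lipase 3 (CC1G_03615) are adjacent as well and differed by -1.93 log2 units and -0.60 log2 units in mature caps against young fruiting bodies. In initials against mycelium CC1G_03615 rose by 1.79 log2 units, and CC1G_03614 differed by 0.62 ± 0.32 log2 units (adjusted p = 0.13). Acyl-CoA dehydrogenases CC1G_06402 and CC1G_06403 are adjacent, with 3 genes between them and the adjacent pair of the racemase CC1G_06407 and acyl-CoA dehydrogenase CC1G_06408. These 4 members rose in mature caps against young fruiting bodies, by 0.80 log2 units, 0.85 log2 units, 0.51 log2 units and 1.21 log2 units. They did not move together in every step. In young fruiting bodies the arrays of CC1G_06402 lay above those of primordia, and the arrays of CC1G_06408 lay below them. Whether probes of close paralogs share signal was not tested.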

How the data were processed

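Total RNA of 5 stages, 2 biological replicates each, was hybridised to one-colour arrays; groups and replicate numbers came from the sample titles. The deposited intensity values are linear, 1 per gene and block of probes, and the authors made them by robust multi-array averaging (RMA), per the file names. Per the file headers 5 probes lay behind a value, and there were 2 blocks on an array. Its software, its settings and the genome build are not given in the sources used here. A joint table deposited for all arrays held the geometric means of the blocks to within 4.98e-08%.

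For each array the log2 values of both blocks were averaged. No further normalization, filter or pseudocount was applied. All 10 arrays entered 1 fit with stage as the only term (limma 3.58.1, lmFit and eBayes, R 4.3.3), which left 5 residual degrees of freedom. The threshold was a Benjamini-Hochberg adjusted p of 0.05 over 13320 genes. The script was run on simulated data with independent noise and few changed genes. These data differ in both, so that run does not give the error rate here. The floor of 4 times the random-sequence controls (7613 probes) was set with the values known. For a bound on a fold, arrays of the dim stage entered at their floor where they lay below it. Precision is limited by how few arrays a stage had. The variance between replicates was 1.11 (mycelium), 1.16 (initials), 1.90 (primordia), 1.34 (young fruiting bodies) and 1.60 (mature caps) times that expected from the probe blocks. The SE and p rest on this spread between arrays. How far it reflects the spread between independent cultures was not tested. The replicate numbers were not taken as pairs, since no label ties them and the deviations of equal numbers did not correlate in every pair of stages.

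Members, roles, the lists of neighbouring pathways and the tests were chosen with earlier results of these data known. All genes of fatty acid synthesis and modification, sterol synthesis and sphingolipids were named; in other roles, for each comparison, up to 3 rises and 3 falls with the largest change among called genes whose arrays did not overlap, 94 genes in all. The 20 alternative settings were leaving out each array, the replicate number as a block, quantile normalization, median centring, a filter on dim genes, each probe block alone, an intensity trend with a robust prior, the deposited series table, only the arrays of both stages, and averaged pairs. RefSeq's table for assembly CC3 was used only for gene order. No sequence was analysed here.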

Additional observations from a re-analysis of the deposited data

How the results depend on the processing

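The counts of called members at a 2-fold minimum were 14 for initials against mycelium (81 without the minimum), 1 for primordium against initials (54), 2 for young fruiting body against primordium (52), 30 for mature cap against young fruiting body (97) and 36 for mature cap against mycelium (101). With averaged pairs, which leaves 2 residual degrees of freedom, the first 3 counts were 49, 9 and 16, and the last 2 were 82 and 88. Leaving out 1 array at a time gave 66 to 85, 29 to 60, 38 to 60, 90 to 96 and 96 to 101 called members in the same order, and 105 to 108 (107 with all arrays) for the F test. Calls over all genes were also fewer with averaged pairs, and without any single array of either stage compared. The replicate number as a block gave 79, 47, 51, 96 and 101, and 108 for the F test. Deviations of replicates of equal number correlated above 0.1 in 8 of the 10 pairs of stages, up to 0.50, and at -0.024 and -0.013 in the other 2, and no label ties equal numbers to a shared batch, so the numbers were not taken as pairs. All settings kept the 5 counts within 1.5 times of the full fit except the 2-fold minimum, averaged pairs in the first 3 comparisons and, in primordium against initials, the fits without initials replicate 1 (30), initials replicate 2 (32) or primordium replicate 1 (29). Calls kept under all 20 settings numbered 49 of 81, 9 of 54, 16 of 52, 82 of 97 and 88 of 101. A value that turned its sign past the threshold was that of lipase I CC1G_03618 in mature cap against young fruiting body, -0.48 log2 units without mature cap replicate 1 and 0.67 without mature cap replicate 2, against 0.10 with all arrays; this gene was under the floor throughout. With a floor of 8 times the controls the bounds for CC1G_02590 were at least 13.4-fold lower in mature caps than in young fruiting bodies and at least 1.52-fold lower than in mycelium. With that floor CC1G_07672, then under it in mycelium, was at least 4.12-fold higher in initials and at least 1.93-fold higher in mature caps than in mycelium.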
